A study of Xenopus laevis with 16 samples.

Results

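The genes of the cytosolic ribosomal proteins were followed in embryonic ectoderm of the African clawed frog, Xenopus laevis, in which the transcription factor foxD5 was supplied by injection and the BMP antagonist Noggin by culture. A probe set, the group of short probes that measures 1 transcript on an Affymetrix array, was a member when its only gene symbol was rpl or rps followed by a digit, or began with rpsa or rplp. The rps6k kinases were left out. This rule took 94 of 15491 probe sets, and keeping the brightest probe set of each symbol left 74 members among 7531 measured symbols. Of these, 47 belong to the large and 27 to the small ribosomal subunit. This species is allotetraploid, and many genes have 2 copies, called homeologs, on its long and short chromosomes. Symbols ending in .L and .S tell these copies apart, and each copy was its own member.

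Ribosomal proteins assemble with ribosomal RNA in the nucleolus into the small subunit, which reads the mRNA, and the large subunit, which joins the amino acids. Their mRNAs are known for a run of pyrimidines at the very start, through which the kinase mTOR and the RNA-binding protein Larp1 set their translation, so mRNA level and protein output need not move together. In frog embryos the eggs bring a store of ribosomes, and ribosomal protein mRNA made after the midblastula transition accumulates before it is fully translated.

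Each array was hybridised with total RNA from 45 to 171 pooled animal caps, the ectoderm cut from blastulae, which forms epidermis when cultured alone. The 16 arrays formed 4 groups of 4: caps of uninjected embryos, caps of embryos injected at the 2-cell stage with foxD5 mRNA, 100 pg per cell, and both kinds cultured in 200 ng/ml Noggin, a secreted protein that binds BMP ligands. The labels record harvest at stages 11.5 to 13.0, with no stage for the uninjected caps without Noggin, and name each uninjected sample as siblings of a numbered injected one. This gave 4 sibling pairs without Noggin and 4 in Noggin. No group received a control mRNA, so injection itself and foxD5 cannot be told apart. Recorded stage also differed between siblings. In Noggin the foxD5 caps of pairs 2, 3 and 4 were harvested at 11.5 to 12.5, 12.0 to 12.5 and 12.5, and their siblings at 11.5 to 12.0, 11.5 to 12.0 and 12.0 to 12.5, while both samples of pair 1 were at 11.5 to 12.5. The foxD5 caps without Noggin reached 13.0 in pairs 1, 2 and 3. The part of stage in the results was not tested.

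The labels also call the source cochlea, and 0 of 8 inner ear markers had a probe set with 1 symbol. The 15 epidermal probe sets had mean signals from 41.7 in cdh1.S to 5732 in the keratin krt70.S. Neural markers were also present, with sox3.S at a mean of 1127 and a summed signal of 11 probe sets of 1585 to 4873. The summed signal of 7 mesoderm probe sets stayed between 45.0 and 219 and that of 11 endoderm probe sets between 45.0 and 201. The injected gene was read through foxd4l1.1.S, listed by RefSeq under the synonym foxd5. Its signal was 38.1 to 134 in foxD5 caps against 20.9 to 70.6 in uninjected caps, and 16.1 to 169 against 11.3 to 255 in Noggin. These ranges overlap, and whether its probes lie within the injected mRNA is not given in the sources used here, so the labels were not checked by it. Pair 1 without Noggin stood apart: its uninjected sample held 45 caps and its injected sample 171, and the deviations of its arrays from their group means correlated at -0.115 over all probe sets, against 0.203 to 0.670 in the other pairs. That pair was also the inferred one of its culture, as its injected sample has no number. The foxD5 results that change without that pair are given both ways.

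The median ribosomal protein mRNA was somewhat higher with foxD5 in most sibling pairs, but no single gene passed the test. Over both cultures 0 of 74 members had an adjusted p under 0.05 in limma, against 1.37% of all probe sets. The members' median log2 change was 0.18, that of all probe sets -0.0056, and 70 members were above 0 (94.6%, against 48.7% of all probe sets). At an unadjusted p under 0.05 stood 14 members (18.9%), all of them higher, against 11.6% of all probe sets. The members vary together from array to array, so these shares are not counts of independent genes. Between sibling pairs the members' median change varied with an SD of 0.24. The median was 0.18 for the 47 members of the large subunit and 0.17 for the 27 of the small subunit. Among 2844 other bright probe sets, with a mean normalised log2 of 8 or more, the median was 0.0019. Fewer cells of a type and less RNA per cell cannot be told apart in such pooled tissue.

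**Figure D1:**
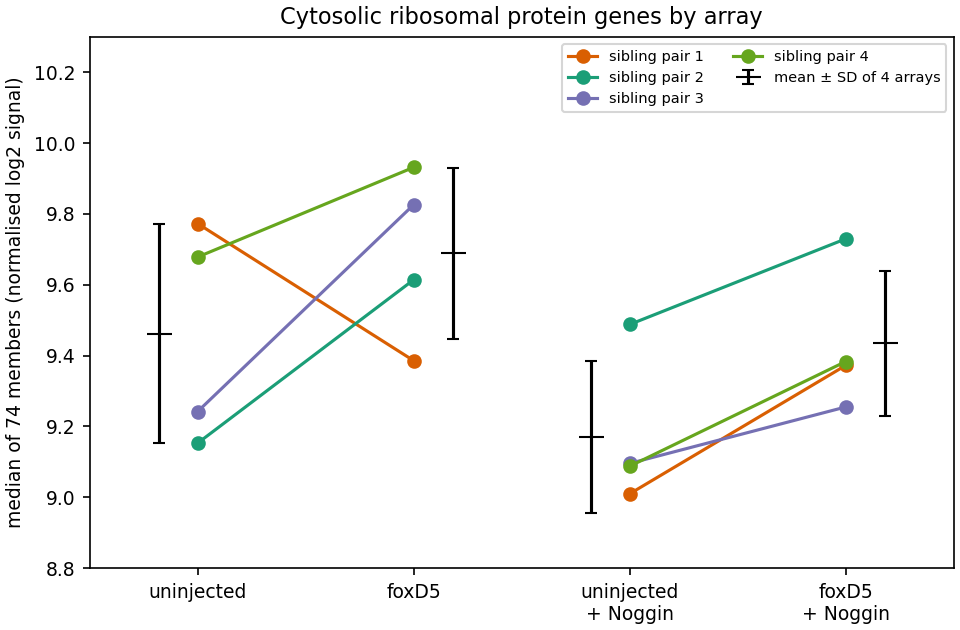
Median normalised log2 signal of the 74 members on each of the 16 arrays, by group; lines join the uninjected and foxD5-injected samples of a sibling pair, and the black bars give the group mean ± SD of 4 arrays. The line runs upward in 7 of 8 pairs and downward in pair 1 without Noggin, and the groups overlap.

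The same shift is visible array by array. The members' median normalised log2 signal was 9.77, 9.15, 9.24 and 9.68 in uninjected caps of pairs 1 to 4, and 9.39, 9.61, 9.83 and 9.93 in their foxD5 siblings. In Noggin it was 9.01, 9.49, 9.10 and 9.09 in uninjected caps and 9.37, 9.73, 9.25 and 9.38 in foxD5 caps. Group means were 9.46 ± 0.31 and 9.69 ± 0.24 without Noggin and 9.17 ± 0.22 and 9.44 ± 0.20 in Noggin (SD, n = 4), so the groups overlapped and the shift appears within sibling pairs. The median change within pairs without Noggin was -0.36, 0.33, 0.43 and 0.16, with 13, 65, 68 and 59 of 74 members higher. Within pairs in Noggin it was 0.25, 0.24, 0.088 and 0.34, with 68, 70, 58 and 58 members higher. Of the members, 40 were higher in at least 7 of 8 pairs (54.1%, against 7.88% of all probe sets), 3 in all 8 pairs (4.05%, against 1.74%), and none in fewer than 2. The 3 were rpl10a.S, rps24.L and rps25.S, which are named here because their count is small.

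**Figure D2:**
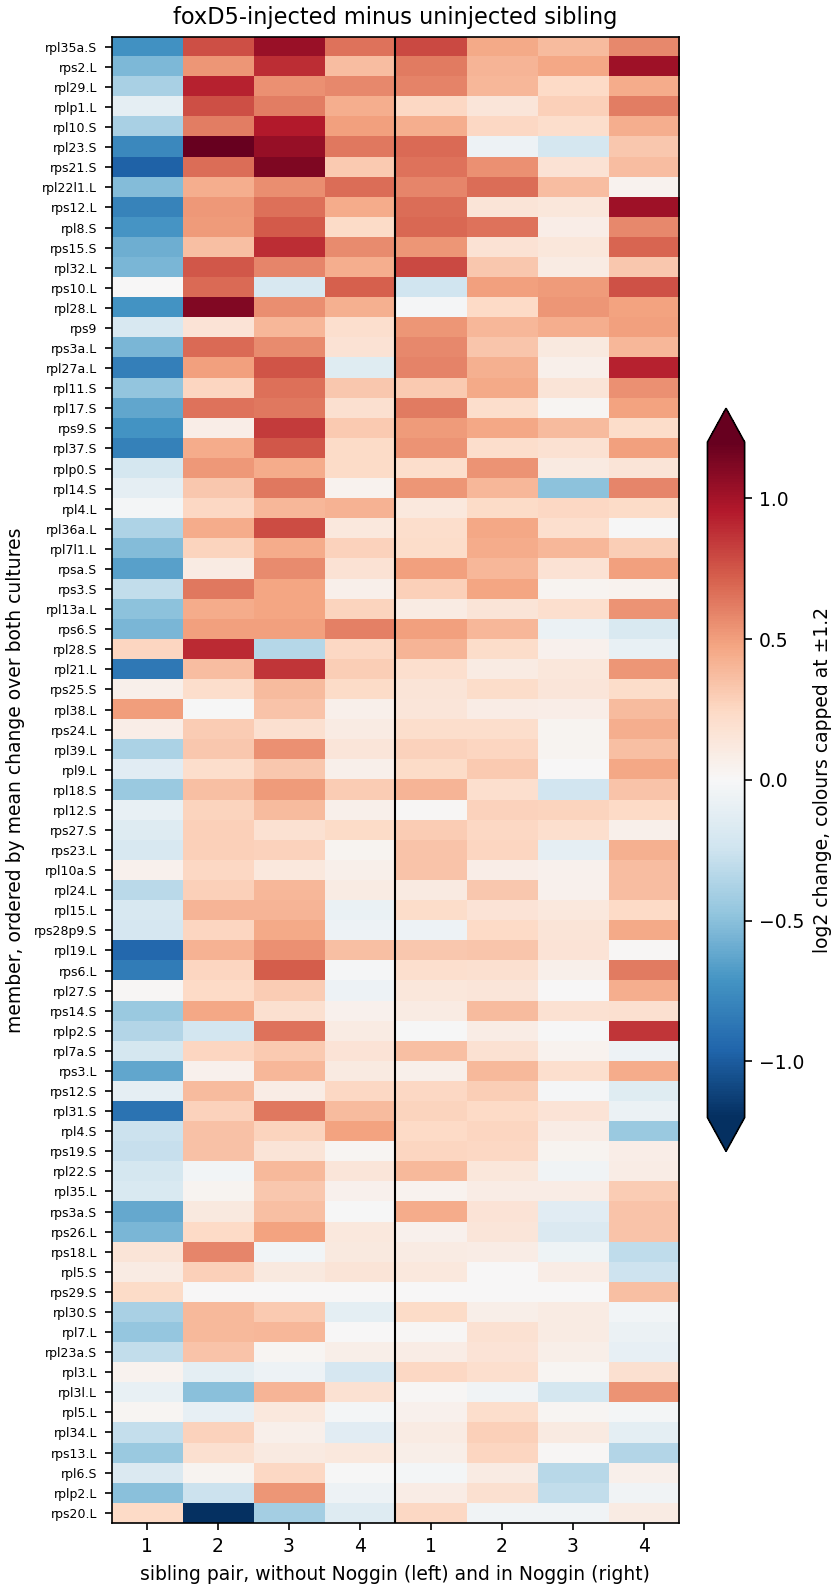
Log2 change of each of the 74 members (rows, ordered by mean change over both cultures) in each of the 8 sibling pairs (columns), red for higher and blue for lower with foxD5, with colours capped at ±1.2. The column of pair 1 without Noggin is mostly blue, with 13 members higher, while in the other columns 58 to 70 members are higher.

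Among large subunit proteins the highest mean change belonged to rpl35a.S, whose human counterpart is mutated in some patients with Diamond-Blackfan anaemia. Its signal, on the authors' linear scale, was 1353, 581, 748 and 1417 in uninjected caps of pairs 1 to 4 and 814, 1055, 1614 and 2331 in their foxD5 siblings. In Noggin it was 714, 1285, 675 and 677 in uninjected and 1237, 1705, 878 and 1007 in foxD5 caps. It was higher with foxD5 in every pair except pair 1 without Noggin, and both pairs of groups overlapped. The change over both cultures was 0.49 ± 0.17 (SE, 8 pairs, adjusted p = 0.249). The large subunit protein rpl29.L read 591, 317, 465 and 616 without and 453, 588, 669 and 947 with foxD5, and in Noggin 332, 519, 431 and 374 without and 518, 694, 508 and 506 with it. Its pattern was the same, higher in 7 of 8 pairs, with a change of 0.42 ± 0.14 (adjusted p = 0.225). For rpl10.S, a protein that joins the large subunit late in its assembly, the signal was 1112, 457, 592 and 846 in uninjected and 841, 713, 1172 and 1201 in foxD5 caps. In Noggin it was 468, 733, 496 and 503 and 635, 862, 569 and 684. It was again lower with foxD5 only in pair 1 without Noggin, and the change over both cultures was 0.37 ± 0.14 (adjusted p = 0.288).

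The proteins of the stalk, the arm of the large subunit that recruits elongation factors, had changes on both sides of 0. The acidic stalk protein rplp1.L read 699.5, 404, 446 and 708 in uninjected and 647, 689.9, 680.0 and 978 in foxD5 caps, and 349, 534, 426 and 355 and 433, 593, 522 and 548 in Noggin. It was higher in 7 of 8 pairs, by 0.38 ± 0.12 over both cultures (adjusted p = 0.198), and was lower only in pair 1 without Noggin, at -0.11. The base of the stalk, rplp0.S, was at 0.25 ± 0.11 (adjusted p = 0.422). Its partner rplp2.L was at -0.044 ± 0.12 and the other homeolog rplp2.S at 0.14 ± 0.14. Whether these stalk genes differ from each other in their change was not tested, except for the 2 homeologs below.

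Of the small subunit proteins, rps2.L, which lies near the channel where mRNA enters, had the highest change. Its signal was 783, 402, 350.3 and 735 in uninjected and 530.1, 577, 647 and 966 in foxD5 caps, and 332, 642, 272 and 286 and 526, 844, 373 and 586 in Noggin. The injected sample was higher in 7 of 8 pairs, by 0.47 ± 0.15 (adjusted p = 0.201). At the other end stood rps20.L, a protein of the head of the small subunit, at -0.16 ± 0.14. It read 44.7, 75.7, 77.8 and 37.9 in uninjected and 52.7, 25.2, 51.9 and 31.8 in foxD5 caps, so it was lower in pairs 2, 3 and 4 and higher in pair 1. In Noggin it read 59.3, 46.7, 112 and 83.7 and 72.5, 45.0, 107 and 92.5, with siblings close to each other. The next lowest changes were those of rplp2.L, rpl6.S at -0.015, rps13.L at -0.0032 and rpl34.L at 0.035, all within 1 SE of 0, and each turned sign in at least 1 alternative. The zinc-binding rps29.S, at 8561, 7266, 8119 and 9551 in uninjected and 8472, 9081, 12166 and 10662 in foxD5 caps, was at 0.073 ± 0.10. Its signal was higher in pairs 2, 3 and 4 and slightly lower in pair 1, but quantile normalisation gave siblings the same value in 6 of 8 pairs, where its rank among the brightest probe sets was the same on both arrays. The fitted change therefore rests on the 2 other pairs, pair 1 without Noggin at 0.23 and pair 4 in Noggin at 0.36. In pair 1 without Noggin the signal itself was slightly lower, so the fitted rise there comes from the normalisation.

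Without pair 1 lacking Noggin, 9 members rose past the threshold (12.2%, against 2.54% of all probe sets) and 0 fell. In that pair the members' median change was -0.36, so leaving it out raises their changes by construction. The counts in this paragraph are therefore no separate support for a rise. At an unadjusted p under 0.05 stood 42 members (56.8%, against 17.6%). The members' median became 0.23, with 73 of 74 above 0, and 37 members were higher in all 7 remaining pairs (50%, against 4.2% of all probe sets). rpl35a.S rose by 0.68 ± 0.10 (adjusted p = 0.00873), rpl29.L by 0.55 ± 0.10 (adjusted p = 0.0221) and rps2.L by 0.61 ± 0.11 (adjusted p = 0.0243). rpl10.S rose by 0.51 ± 0.10 and rplp1.L by 0.47 ± 0.10, with adjusted p = 0.0297 and 0.0443. The other 4 were the small subunit protein rps21.S, at 0.57 ± 0.12 (adjusted p = 0.0390), the large subunit proteins rpl23.S at 0.59 ± 0.13 (0.0473) and rpl32.L at 0.49 ± 0.11 (0.0483), and rpl22l1.L, a paralogue of rpl22, at 0.49 ± 0.11 (0.0456). Of these 9, rpl23.S was higher in 5 of 7 pairs and the other 8 in 7 of 7. In the pair left out all 9 were lower, from -0.11 in rplp1.L to -0.97 in rps21.S. No other pair, when left out, brought a member past the threshold.

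**Figure D3:**
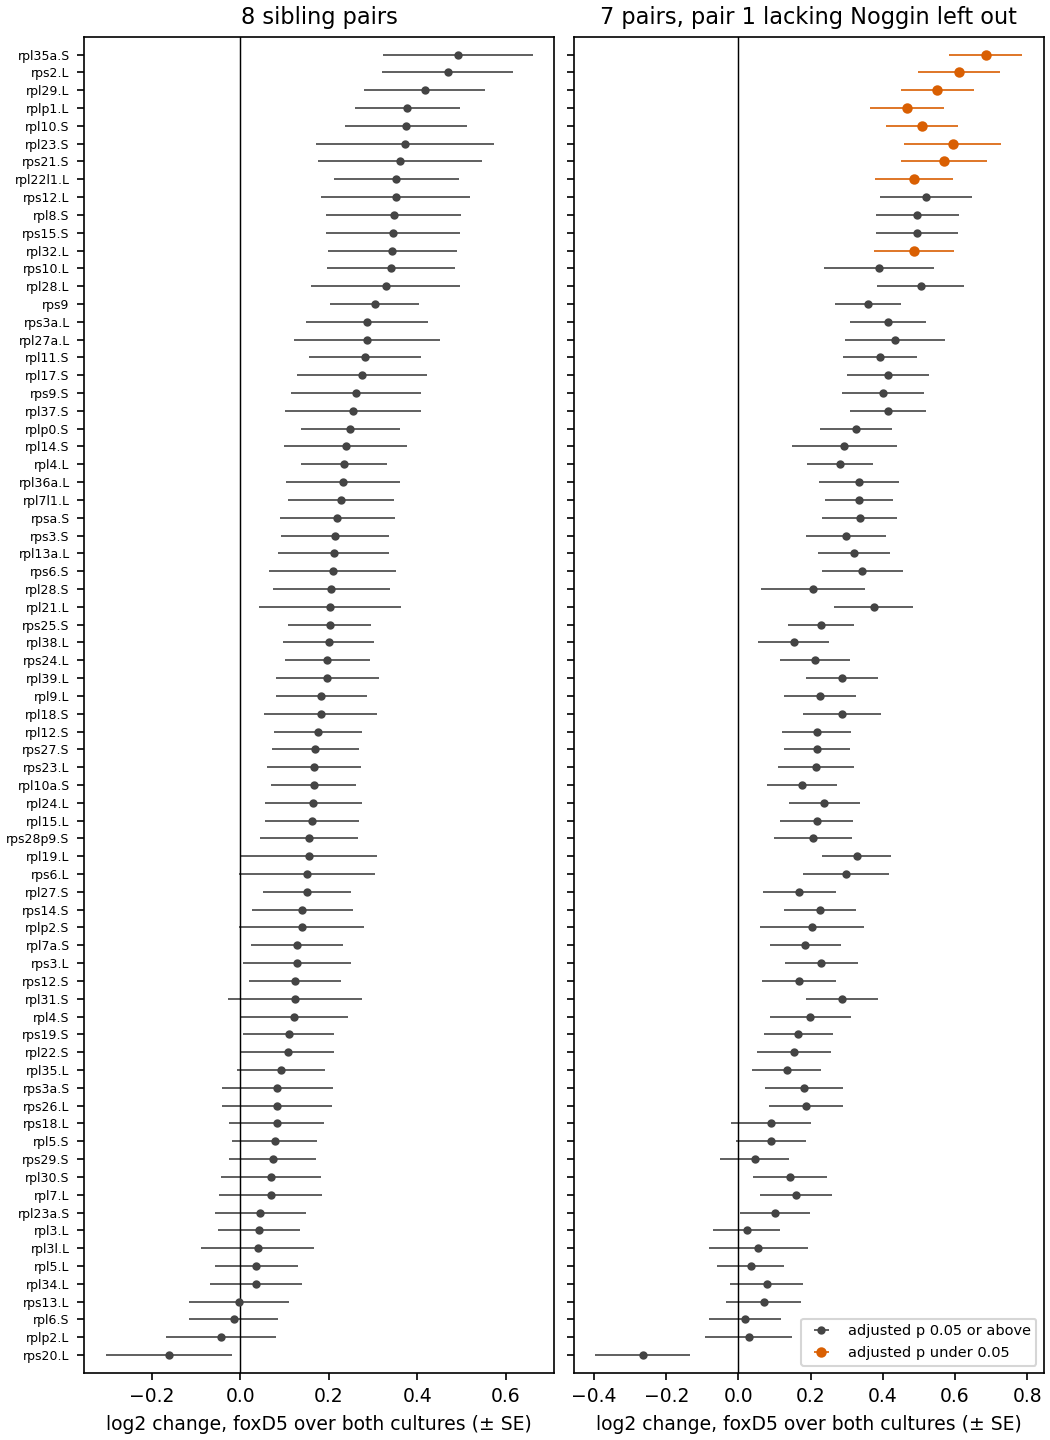
Log2 change with foxD5 over both cultures (± SE) of each of the 74 members, with all 8 sibling pairs on the left and without pair 1 lacking Noggin on the right; orange points have an adjusted p under 0.05. All points on the left are grey, and the 9 orange points on the right are all above 0. The pair left out is the one in which most members were lower.

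Markers of epidermis were mostly lower with foxD5, while the ribosomal protein genes were mostly higher. Over both cultures 11 of 15 epidermal probe sets were below 0 and 4 above it, with a median of -0.71. Past the threshold 2 fell with foxD5 and none rose, where 1.37% of all probe sets were called. These were the epidermal transcription factors grhl3.L, at -0.95 ± 0.12 (adjusted p = 0.00189), and tfap2a.L, at -1.33 ± 0.17 (adjusted p = 0.00234). By pair the epidermal median was -2.11, -0.17, -0.0088 and -1.15 without Noggin and -0.29, -1.05, -0.14 and -0.0067 in Noggin. Pair 1 without Noggin, in which the ribosomal protein genes were lower, had the most negative value. Its uninjected sample had a summed epidermal signal of 22322, against 9569.7 to 15624 in the other 3 uninjected samples. This sum was 9447.9 to 12225 in foxD5 caps, and in Noggin 9554.5 to 25437 in uninjected and 9961.9 to 14953 in foxD5 caps. Of the other markers, 1 of 11 neural probe sets fell, irx1.L, and 0 of 11 endoderm probe sets passed for foxD5 over both cultures. Of 7 mesoderm probe sets 1 rose, tbxt.S, which was dim with a mean signal of 16.8. The part of epidermal content, or of the number of caps, in the results was not tested.

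Taken by culture, 0 members passed in either. Without Noggin (0.239% of all probe sets called) 67 members were above 0 (90.5%, against 50.5% of all probe sets), with a median of 0.15. Only rplp1.L had an unadjusted p under 0.05 (1.35% of members, against 10.2%), and 4 members were higher in all 4 pairs (5.41%, against 8.2%), both shares below the background. Without pair 1, in which most members were lower, both shares were above it. Leaving that pair out raises the members' changes by construction, so these shares are no separate support for a rise. Without it 31 members had an unadjusted p under 0.05 (41.9%, against 14.3% of all probe sets). Higher in all 3 remaining pairs were 52 members (70.3%, against 17.2%), still with 0 past the threshold. The median was then 0.28 with 71 members above 0, and it was 0.050 without pair 3. The highest changes were in rpl23.S at 0.56 ± 0.28, rpl35a.S at 0.43, rplp1.L at 0.43, rpl10.S at 0.42 and rpl29.L at 0.42. The lowest were in rps20.L at -0.38 ± 0.20, rpl3.L, a protein near the peptidyl transferase centre, at -0.082, rplp2.L at -0.073, rps3a.S at -0.037 and rpl34.L at -0.024. The signals of foxD5 and uninjected caps overlapped in every member, while 2.78% of all probe sets had groups that did not overlap.

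In Noggin (0.316% of all probe sets called) 69 members were above 0 (93.2%, against 48.2%), with a median of 0.21. Here 43 members were higher in all 4 pairs (58.1%, against 10.2% of all probe sets), yet 4 had an unadjusted p under 0.05 (5.41%, against 7.37%). These were rps2.L at 0.63 ± 0.21 (adjusted p = 0.460), rpl35a.S at 0.55 ± 0.24, the large subunit core protein rpl8.S at 0.50 ± 0.21 and rps9, without a homeolog suffix, at 0.46 ± 0.14 (adjusted p = 0.360). rps9 read 839, 1001, 773 and 577 in uninjected and 1206, 1316, 1042 and 823 in foxD5 caps, each injected sample above its sibling. The 5 highest changes were those of rps2.L, rpl35a.S, rpl27a.L at 0.50, rpl8.S, and rps12.L at 0.50. The lowest were rpl6.S at -0.053, rps18.L at -0.042, rplp2.L at -0.014, rpl5.S at -0.0073 and rps13.L at -0.0018. Again 0 members had groups that did not overlap, against 2.21% of all probe sets.

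The difference between the 2 effects of foxD5 was tested as an interaction, and 0 members passed, as did 0% of all probe sets. At an unadjusted p under 0.05 stood 0 members, against 4.94% of all probe sets. The effect was larger in Noggin for 55 members (74.3%, against 49.2% of all probe sets), with a median difference of 0.073. This direction was not stable. The median became -0.087 without pair 1 lacking Noggin, where 2 members had an unadjusted p under 0.05 (2.7%, against 5.95% of all probe sets), and with all pairs it was -0.0039 when arrays were centred on their median and -0.0044 with array weights. The largest positive differences were in rps20.L at 0.45 ± 0.29, rpl27a.L at 0.43, rpsa.S at 0.34, rps9 at 0.32 and rps2.L at 0.32. The most negative were in rpl23.S at -0.38 ± 0.40, rps18.L at -0.25, rpl4.S at -0.18, rpl5.S at -0.17 and rpl28.S at -0.12.

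The members' median signal was lower in Noggin than without it, again with no member past the threshold. By array the members' median normalised log2 was 9.15 to 9.77 in uninjected caps without Noggin and 9.01 to 9.49 in Noggin. In foxD5 caps it was 9.39 to 9.93 and 9.25 to 9.73, so the groups overlapped. As the members vary together, the shares below are not counts of independent genes. The sibling numbers do not link the cultures, so Noggin and clutch cannot be told apart. In uninjected caps 0 members passed (0.00646% of all probe sets called), 68 were below 0 (91.9%, against 50.8% of all probe sets), and the median was -0.31, against -0.0065 for all probe sets. At an unadjusted p under 0.05 stood 12 members (16.2%, against 8.23%), all of them lower in Noggin. Among the 2844 other bright probe sets that share was 11.8% in uninjected and 18.6% in foxD5 caps. In foxD5 caps 0 passed (0.129% called), 65 were below 0 (87.8%, against 50.7%), the median was -0.23, and 7 had an unadjusted p under 0.05 (9.46%, against 11.8%). Centring each array on its median in place of quantile normalisation reduced the medians to -0.14 and -0.13, with 24.3% and 18.9% of members above 0, against 8.11% and 10.8%. With 1 array left out at a time, the median in uninjected caps ranged from -0.42 to -0.17, the latter without uninjected sample 1. That in foxD5 caps ranged from -0.36 to -0.16, the former without foxD5 sample 1. Without both of these arrays the medians were -0.22 and -0.33. The 15 epidermal probe sets had a median of -0.26 for Noggin in uninjected caps and 0.27 in foxD5 caps, with 0 past the threshold.

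The lowest value in uninjected caps belonged to rpl8.S. Its signals of 820.2, 384, 441 and 726 without Noggin stood against 290.3, 504, 294 and 265 in Noggin, where sample 2 was higher than the other 3 and overlapped the range without Noggin. The change was -0.78 ± 0.29 (adjusted p = 0.455), and -0.47 in foxD5 caps. rpsa.S, a small subunit protein also described in mammals as a laminin receptor, read 898, 522, 479 and 785 without and 346, 506, 414 and 357 with Noggin, a change of -0.70 ± 0.22 (adjusted p = 0.360). The large subunit protein rpl15.L was low in both kinds of caps. Its signals were 2084, 1092, 1342 and 1653 and 1694, 1551, 1925 and 1613 in uninjected and foxD5 caps, and 1028, 1349, 761 and 1069.8 and 1199, 1466, 837 and 1235 in Noggin. The foxD5 groups did not overlap. The changes were -0.61 ± 0.20 and -0.56 ± 0.20 (adjusted p = 0.395 and 0.259). rps2.L at -0.59 and rpl3.L at -0.58 ± 0.18 (adjusted p = 0.360) completed the 5 lowest in uninjected caps. In foxD5 caps these were rpl15.L, rplp1.L at -0.53, rpl10.S at -0.51, rpl8.S, and rpl18.S at -0.47.

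A few members ran the other way. rps20.L was higher in Noggin by 0.84 ± 0.27 in foxD5 caps (adjusted p = 0.198) and by 0.39 in uninjected caps, as its signals above show. rps10.L, also of the small subunit head, read 28.2, 14.8, 36.5 and 25.3 and 23.3, 36.5, 31.7 and 53.1 in uninjected and foxD5 caps, and 58.6, 18.2, 32.0 and 55.3 and 44.0, 30.5, 56.1 and 106 in Noggin. Its groups overlapped, with changes of 0.49 and 0.57. Both genes were dim, and the pseudocount of 16 added before taking logs shrinks changes of dim probe sets. The next highest were rpl28.L at 0.078, rpl23.S at 0.048 and rpl22.S at 0.033 in uninjected caps. In foxD5 caps they were rps12.L at 0.22, rps9 at 0.17 and rpl22.S at 0.10, all within 1 SE of 0. In uninjected caps the groups did not overlap in 3 members (4.05%, against 4.35% of all probe sets), namely rps28p9.S, rps3.L and rps6.S, whose product is the classic substrate of the S6 kinases. In foxD5 caps they did not overlap in 2 (2.7%, against 6.68%), rpl15.L and rplp1.L. Both shares are below the background.

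**Figure D4:**
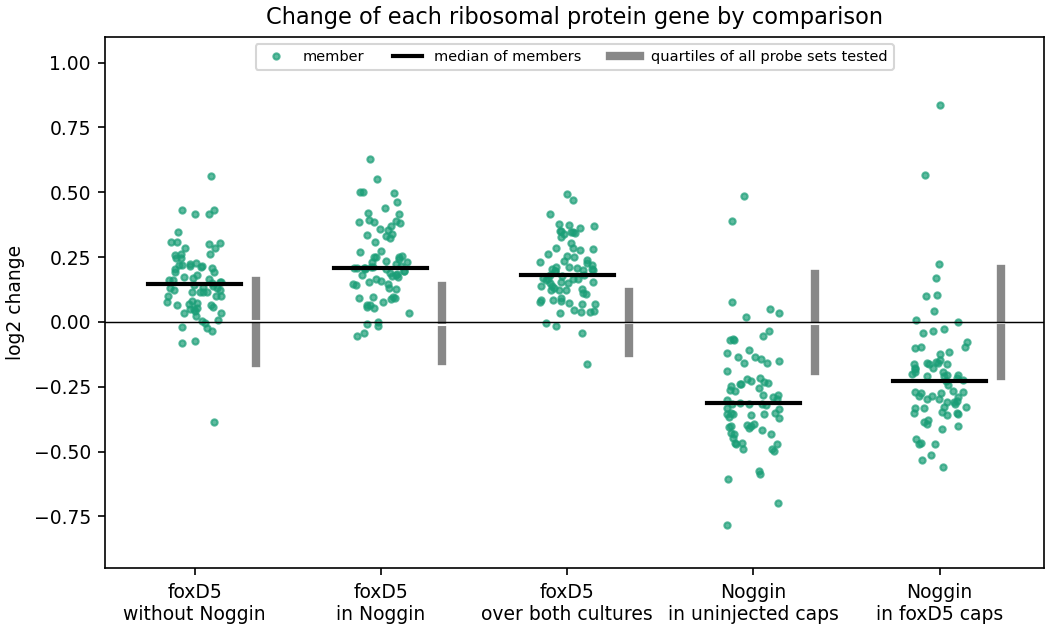
Log2 change of each of the 74 members (points) in 5 comparisons, with the median of the members (black line) and, beside it, the range from the lower to the upper quartile of all 15491 probe sets (grey bar, white mark at the median). The members' medians are 0.15, 0.21 and 0.18 for foxD5 without Noggin, in Noggin and over both cultures, and -0.31 and -0.23 for Noggin in uninjected and in foxD5 caps.

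For 8 genes both homeologs had a member, and the test of .L minus .S asked whether the copies changed alike. None of the 8 passed for foxD5 (0.983% of 1017 homeolog pairs called) or for Noggin (0.197% called), and none had an unadjusted p under 0.05, against 12.7% and 11.6% of all homeolog pairs. The smallest p for foxD5 was that of rps3a, a small subunit protein. rps3a.L read 878, 488, 556 and 827 in uninjected and 594, 792, 829 and 936 in foxD5 caps, and 433, 893, 446 and 453 and 655, 1136, 484 and 609 in Noggin. rps3a.S read 2347, 1419, 1702 and 2329 and 1485, 1646, 2422 and 2386, and 1300.1, 2459, 1245 and 1120.2 and 1756, 2650.4, 1180.2 and 1413 in Noggin. The change was larger in the .L copy in 8 of 8 pairs, by 0.20 ± 0.11 on average (95% interval -0.047 to 0.45, adjusted p = 0.511). Its chosen probe sets end in x_at, a mark for probes that can match other transcripts. Over both cultures they gave 0.29 for rps3a.L and 0.084 for rps3a.S. The dimmer probe sets of the same copies, without that mark, gave 0.27 ± 0.14 and 0.13 ± 0.13. Whether the homeologs share signal was not tested.

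The next smallest p values for foxD5 were in rplp2, rps12 and rpl4. In rplp2 the .L copy changed less, by -0.18 ± 0.14 (95% interval -0.48 to 0.11). In rps12 it changed more, by 0.23 ± 0.17 (-0.15 to 0.61), and in rpl4, which lines the exit tunnel, by 0.11 ± 0.13 (-0.16 to 0.39). The other 4 were rpl28 at 0.12 ± 0.19, rps3 at -0.085 ± 0.13, rps6 at -0.057 ± 0.15 and rpl5 at -0.041 ± 0.11. On either side of the estimate all 8 intervals extended by more than the members' own median change of 0.18. A difference of that size between homeologs was therefore not detectable here. For Noggin the smallest p values were in rpl4 at -0.22 ± 0.17, rplp2 at -0.20 ± 0.19, rps12 at 0.32 ± 0.34 and rps6 at 0.18 ± 0.22. The median absolute difference over the 8 genes was 0.12 for foxD5, against 0.13 over all homeolog pairs, and 0.14 against 0.21 for Noggin.

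**Figure D5:**
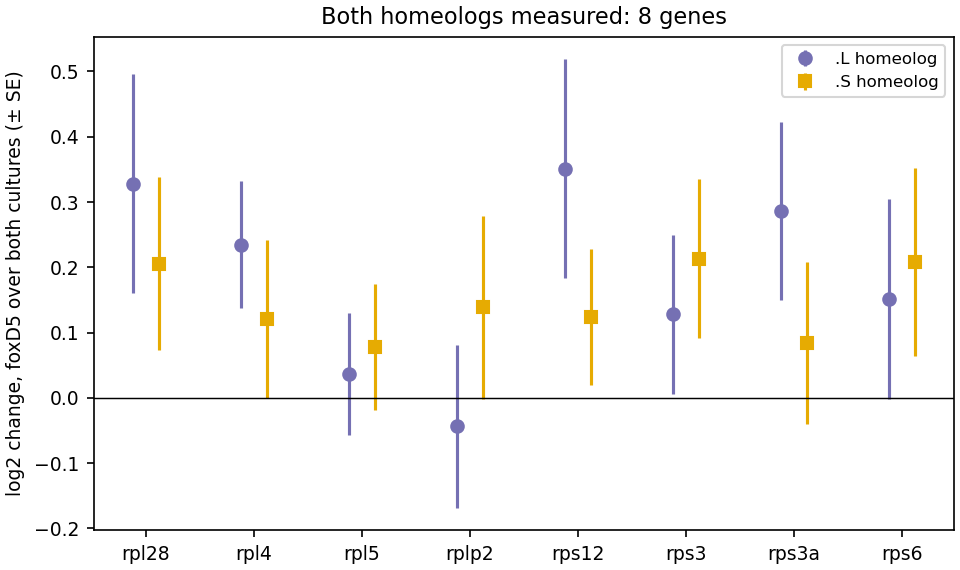
Log2 change with foxD5 over both cultures (± SE) of the .L (circles) and .S (squares) homeologs of the 8 genes with both measured. The error bars of the homeologs overlap in each gene, and all values except that of rplp2.L are above 0.

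For 14 members the array held more than 1 probe set, and the 20 not chosen had a median of 0.096 for foxD5 over both cultures, with 17 above 0, against 0.16 for the chosen probe sets of these 14. For Noggin in uninjected caps the medians were -0.23 and -0.28. None of these 20 passed in any comparison, so no second probe set differed from the brightest in its call, but some differed in direction or size. The 3 probe sets of rpl35a.S gave 0.49, 0.38 and 0.49. For foxD5, 3 of the 20 had the opposite sign to the chosen one, in rps10.L (-0.045 against 0.34), rps28p9.S (-0.046 against 0.15) and rps29.S (-0.056 against 0.073). For Noggin in uninjected caps 3 did, in rpl34.L (0.39 against -0.40), rps6.S (0.18 against -0.37) and rps28p9.S (0.39 against -0.43, while a further one was at -0.81). Those of rpl35.L had the same sign but were at -0.16 and -0.64. Several of the differing probe sets were dim. The mean signal was 9.54 in that of rpl34.L, against 1026 for the chosen one, and 12.6 against 578 in rps28p9.S. It was 25.9 against 40.6 in rps10.L, 55.4 against 258 in rps6.S and 68.0 against 667 in rpl35.L. That of rps29.S was bright, at 2565, and the one of rps28p9.S at -0.81 had 429. The values of these 6 genes are therefore uncertain, and the part of dimness in the differences was not tested. A further 14 probe sets, assigned by the annotation to both homeologs of a ribosomal protein gene and so outside the rule, had a median of 0.16, with 14 above 0, and of -0.40 and -0.25 for Noggin in uninjected and foxD5 caps.

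Symbols do not fully match the protein family. rpl7l1.L (0.23 ± 0.12 over both cultures) and rpl22l1.L are paralogues of rpl7 and rpl22. rpl3l.L, a muscle paralogue of rpl3 in mammals, was very dim, with a mean signal of 3.71. rps28p9.S (0.15 ± 0.11) carries a name given to a pseudogene of RPS28 in human. The rule misses fau.L, which encodes a ubiquitin-like protein fused to the small subunit protein RPS30 and was at 0.075 ± 0.10. rack1, a scaffold on the small subunit, had no probe set with 1 symbol.

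The members also varied together from array to array. After subtracting group means, the median correlation between 2 members over the 16 arrays was 0.57 (quartiles 0.32 and 0.73), against 0.0075 among the 2844 other bright probe sets. For 61 of 74 members the correlation with the median of the others was above 0.5. These are correlations over arrays that share RNA sample, hybridisation and scaling, and are given as a description. Between the samples of a sibling pair the members' deviations correlated at -0.51, 0.37, 0.072 and 0.73 in pairs 1 to 4 without Noggin and at 0.43, 0.86, 0.73 and 0.44 in Noggin.

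Genes that serve ribosomal proteins did not pass either. Ribosome biogenesis was read through a list of 132 names, with homeologs counted apart, here and in the lists below. Of the 113 symbols measured, 0 passed in any of the 6 comparisons. Their median was 0.049 for foxD5 over both cultures, and -0.18 and -0.16 for Noggin in uninjected and foxD5 caps. At an unadjusted p under 0.05 stood 6 of them for foxD5 over both cultures (5.31%, against 11.6% of all probe sets). For Noggin it was 16 in uninjected caps (14.2%, against 8.23%), 13 of them lower, and 34 in foxD5 caps (30.1%, against 11.8%), 31 of them lower. Among the 2844 other bright probe sets the shares were 11.8% in uninjected and 18.6% in foxD5 caps. These lie above the shares of all probe sets and below those of the biogenesis list. The smallest p values for foxD5 over both cultures were in nol12.S, a nucleolar RNA-processing factor, at -0.42 ± 0.11 (adjusted p = 0.123), and the nucleolar surf6.L at 0.43 ± 0.12 (0.128). In Noggin mphosph10.L, a protein of the U3 particle that processes ribosomal RNA, was at -0.81 ± 0.19 and -0.89 ± 0.19 in uninjected and foxD5 caps (adjusted p = 0.195 and 0.0676). riok2.L, a kinase of small subunit maturation, was at -0.62 ± 0.17 in uninjected caps and the nucleolar rsl1d1.L at -0.87 ± 0.20 in foxD5 caps.

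Mitochondrial ribosomal proteins, which build a separate ribosome, had a median of 0.0040 over 38 measured genes for foxD5 over both cultures, with 0 past the threshold. mrpl3.S was at -0.36 ± 0.12 (adjusted p = 0.215) and mrpl51.L at 0.27 ± 0.11. For Noggin the median of the mitochondrial genes was -0.030 in uninjected and -0.15 in foxD5 caps. Below 0 were 52.6% and 76.3% of them, against 50.8% and 50.7% of all probe sets. Their shares at an unadjusted p under 0.05 were 10.5% and 18.4%, against 8.23% and 11.8%. Of 31 genes of the mTOR and Myc control of ribosomal protein synthesis 0 passed, with a median of -0.052 for foxD5 over both cultures. myc.S, a transcription factor that raises ribosome production, was at 0.26 ± 0.10 (adjusted p = 0.318), the poly(A)-binding pabpc4.L at 0.31 ± 0.12, and max.S, the partner of Myc, at 0.90 ± 0.21 for Noggin in uninjected caps (adjusted p = 0.195). Of the 4 measured genes among fau and translation partners, naca.S was at 0.13 ± 0.10 for foxD5 over both cultures.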

How the data were processed

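Affymetrix Xenopus arrays with 1 colour measured total RNA of 16 pooled animal cap samples. The deposited values are intensity, 1 positive linear signal per probe set, and the authors' scale is common to all arrays: trimming 2% at either end left a mean of about 150.0 on each. The software that made them is not given in the sources used here. The number of arrays limits the precision.

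The 120 Affymetrix controls were left out. Values were taken as log2(value + 16) and quantile normalised, and 15491 probe sets were tested without a filter on low signal in R 4.3.3 with limma 3.58.1. Tests were two-sided, and the threshold was a Benjamini-Hochberg adjusted p of 0.05 across these probe sets. For foxD5 the model used the 16 arrays and a fixed term for sibling pair, which left 6 residual degrees of freedom. For Noggin it used group means, sibling pair being a random effect (correlation 0.364, 12 degrees of freedom). The pairing comes from the labels, which name each control as siblings of an injected sample; in each culture 1 injected sample has no number and was taken as 1. Deviations of siblings correlated at -0.115 in pair 1 without Noggin and at 0.203 to 0.670 in the others. Whether pairs came from separate clutches is not stated, and the p values then reflect only how these samples vary, which may be technical. Homeologs were fitted as .L minus .S over 1017 gene pairs. The fits were also run on simulated data, in which probe sets varied independently and the added changes were larger than the members' own. That check does not cover small changes of genes that vary together.

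Members and gene lists were chosen with earlier results of these data known. Named were the members past the threshold, the 5 highest and 5 lowest changes per comparison, the 4 smallest p of each homeolog fit and up to 2 genes per other list. Gene symbols come from the platform annotation, and RefSeq's table of the Xenopus_laevis_v10.1 assembly served for synonyms. Alternatives were other pseudocounts, scalings, blocks, weights, probe sets and left-out arrays or pairs. Leaving out probe sets ending in s_at or x_at, or both arrays of pair 1 without Noggin for the Noggin comparisons, was added after seeing the data.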

Additional observations from a re-analysis of the deposited data

Results flagged for a closer look

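Signals of 32 members, the members' median by array and the median change by pair made 135 groups of 4 or 8 values, and in 12 of them 1 value lay far from the rest by Dixon's criterion. Chance flags about 1 group in 20. Of the 12, 7 concern sample 2 of the uninjected caps in Noggin, which lay above the other 3 samples of its group. Its signal was 1285 in rpl35a.S, against 675 to 714 in the other 3. It was 733 in rpl10.S, against 468 to 503, and 175 in rpl22l1.L, against 131 to 132. It was 504 in rpl8.S, against 265 to 294, and 642 in rps2.L, against 272 to 332. It was 893 in rps3a.L, against 433 to 453, and 2459 in rps3a.S, against 1120.2 to 1300.1. These genes vary together over arrays, so the 7 are not independent. This sample also had the highest summed epidermal signal of all 16 arrays, 25437, against 9554.5 to 13024 in the rest of its group, and the part of that in its ribosomal protein signals was not tested.

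Its foxD5 sibling, sample 2 of the foxD5 caps in Noggin, was high in rpl29.L, at 694 against 506 to 518. Sample 4 of the foxD5 caps without Noggin was high in rplp1.L, at 978 against 647 to 689.9. Sample 2 of the uninjected caps without Noggin was low in rpl4.S, at 434 against 596 to 622, and in rps13.L, at 1412 against 1865 to 1949. Among the 8 pairs, the members' median log2 change of -0.36 in pair 1 without Noggin lay below the 0.088 to 0.43 of the other 7.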

How the results depend on the processing

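No member passed in any comparison under the other settings run, with 2 exceptions for foxD5 over both cultures. Array weights estimated by limma brought 1 member past the threshold, rpl35a.S, and leaving out pairs in turn gave 0 to 9 members, the 9 without pair 1 lacking Noggin. With no replicate block or a random replicate block, 0 members passed, so the paired fit changed no call. The members' median change kept its direction for foxD5 without Noggin, in Noggin and over both cultures and for Noggin in both kinds of caps. The median difference of foxD5 effects between cultures did not: it was -0.0039 centred on the array median, -0.0044 with array weights, and -0.087 to 0.17 with pairs left out.

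Genes near 0 turned sign. For foxD5 without Noggin, as deposited, rps3a.S was 0.024 and rpl34.L 0.0078; centred they were 0.062 and 0.046; with array weights rplp2.L was 0.012 and rps3a.S 0.044. In Noggin, array weights gave rpl5.S 0.025 and rps13.L 0.027. Over both cultures rpl6.S and rps13.L were 0.013 and 0.012 as deposited and 0.028 and 0.027 centred, and rps13.L 0.049 with array weights. For Noggin in uninjected caps rpl28.L was -0.034 as deposited, and rpl28.L, rpl23.S and rpl22.S were -0.13, -0.12 and -0.057 with array weights. With arrays or pairs left out, the ranges without Noggin were -0.28 to 0.071 for rplp2.L, -0.17 to 0.16 for rps3a.S and -0.12 to 0.063 for rpl34.L. In Noggin they were -0.10 to 0.041 for rpl6.S, -0.084 to 0.079 for rplp2.L, -0.089 to 0.045 for rps18.L, -0.053 to 0.074 for rpl5.S and -0.088 to 0.11 for rps13.L. Over both cultures they were -0.14 to 0.029 for rplp2.L, -0.052 to 0.032 for rpl6.S, -0.046 to 0.070 for rps13.L and -0.014 to 0.079 for rpl34.L. They were -0.32 to 0.10 for rpl28.S in the difference between cultures. For Noggin they were -0.23 to 0.33 for rpl28.L, -0.21 to 0.36 for rpl23.S and -0.042 to 0.12 for rpl22.S in uninjected caps, and -0.019 to 0.20 for rpl22.S in foxD5 caps. The cause was not tested. The members' median SE was 0.12 for foxD5 over both cultures and 0.21 for Noggin, which limits what could pass, and 1 member had a mean signal under 16.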
